A study of Mus musculus with 38 samples.

Results

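Terminally exhausted OT-1 CD8+ T cells sorted from tumours and labelled aged (Tterm, 6 libraries) were compared with naive CD8+ T cells from the spleens of aged mice (2 libraries) for the accessibility of their chromatin by ATAC-seq. These 8 libraries were taken by their group labels from 38 libraries in the series, of which 21 stand in the peak table of OT-1 and naive cells used here. The study asked how open chromatin in subsets of tumour CD8+ T cells depends on age. Both groups are wild-type C57BL/6J by their labels and 64 to 68 weeks old. The naive cells came from spleen, were sequenced in batch 3, and carry no tumour label. The Tterm cells came from B16-OVA tumours, a mouse melanoma line made to express ovalbumin, on day 15 after inoculation. They were sorted as Slamf6- Tim-3+. Sorted cells had been pooled into 2 or 3 replicates of 5000 to 50000 cells for each combination of genotype and subset. Libraries 1 to 5 of the Tterm group belong to sequencing batches 4 and 5 and library 6 to batch 6. OT-1 cells carry 1 transgenic T cell receptor against an ovalbumin peptide, whereas the naive cells are not labelled as OT-1. The labels give neither the hosts in which the OT-1 cells had been nor whether the stated age is that of cells, of hosts or of both. Tissue, cell state, receptor and sequencing batch therefore coincide between the groups and cannot be told apart. The design text calls the pools biological replicates, but 6 Tterm libraries are more than 2 or 3 and the labels do not say which share mice, so p-values measure the spread between libraries, which may be technical.

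CD8+ T cells that meet antigen without clearing it pass into exhaustion, a state with inhibitory receptors at the surface, less cytokine production and a chromatin landscape of its own. A progenitor subset keeps the transcription factor TCF-1 (gene Tcf7) and the receptor Slamf6, renews itself and answers checkpoint blockade, while the terminal subset has lost TCF-1, carries Tim-3 (gene Havcr2) and kills but no longer renews. Naive cells are held in quiescence by factors such as TCF-1, LEF-1, FOXO1 and FOXP1 and circulate through lymph nodes with the help of CCR7. ATAC-seq inserts sequencing adapters into open DNA with the transposase Tn5, so the reads in a peak measure how open that stretch is, not how much RNA its gene makes.

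The libraries held 14.8 and 18.1 megareads in peaks for naive and 8.29 to 27.7 megareads for Tterm, with library 6 the deepest. Both naive libraries were alike (Pearson r = 0.962 across peaks, log2 scale). Tterm library 6 stood between the groups: its r with the naive libraries was 0.851 and 0.861, against 0.720 to 0.779 for Tterm libraries 1 to 5. On the first principal component, which took 36.6% of the variance, naive libraries scored 264 and 248, Tterm libraries 1 to 5 between -138 and -98.0, and library 6 scored -0.503. In peaks called higher in Tterm the median gain over naive was 1.22 on the log2 scale in library 6 and 1.66 to 1.85 in the other 5. Library 6 is also the single library of this group from batch 6, so the batch and this library cannot be told apart within the group. Among young Tterm libraries of the same batch, number 7 scored -9.77 and number 6 scored -89.9. Counts are therefore given with and without library 6.

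**Figure D1:**
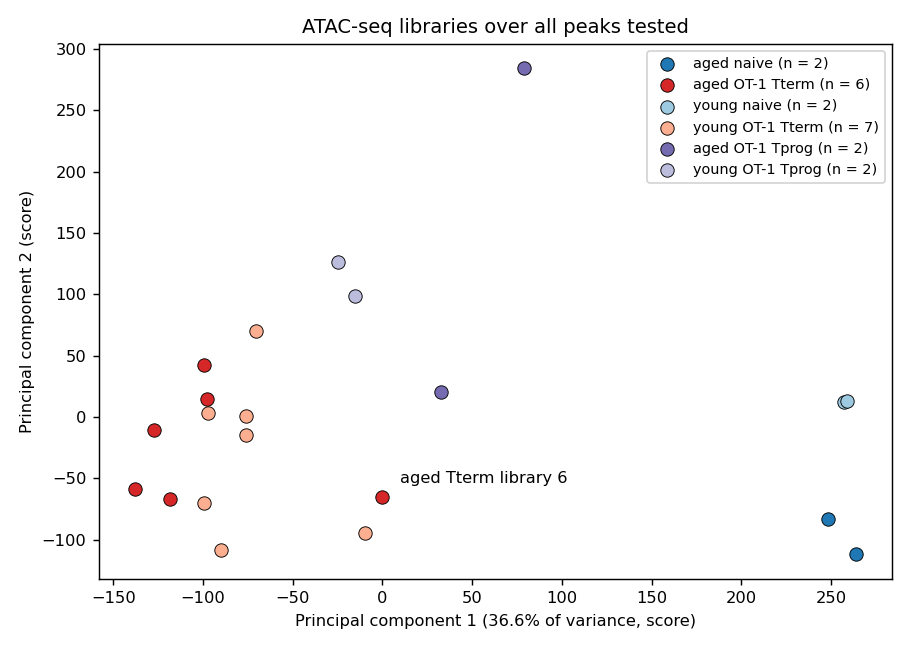
Scores of the 21 libraries on the first 2 principal components of log2 values over all peaks tested; each point is 1 library, coloured by group. Aged naive libraries lie at 264 and 248 on the first component, 5 aged Tterm libraries at -98.0 or below, and aged Tterm library 6 at -0.503.

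Peaks that differed between the states made up 47.7% of those tested. Of 84091 peaks tested (mean of 10 or more normalized reads over the table), 18021 were more open in aged Tterm, which is 21.4%, and 22087 were less open, which is 26.3% (limma, adjusted p under 0.05). At 6673 of the higher and 4758 of the lower peaks the fitted difference was 4-fold or more. Without library 6 the counts were 18271 higher and 21695 lower, of which 17537 and 21104 were called with it too. The fit holds a term for sequencing batch 6, which takes up part of the deviation of library 6, so these counts are alike partly for that reason. With library 6 kept and that term left out they were 17557 higher and 19964 lower. The median difference over all peaks was -0.17 on the log2 scale, and differences below are on that scale, of log2(normalized reads + 1), unless a level is named. Values of the 2 groups did not overlap at 48638 peaks, 57.8% of those tested. With a single naive library left the counts were smaller, 11400 higher and 8431 lower without naive library 1 and 12401 and 11901 without naive library 2. In such bulk libraries a larger share of cells with an open site and a wider opening per cell cannot be told apart.

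Promoter peaks gained less often and lost more often than peaks inside or between genes. Promoter peaks, within 1000 bp of a RefSeq transcription start, were higher in 9.37% and lower in 30.9%. Where a gene has no known start, peaks at its ends (1000 bp), which take in the promoters of such genes, were higher in 10.5% and lower in 33.2%. Peaks inside genes were higher in 23.8% and lower in 25.2%, and peaks between genes also in 23.8% and 25.2%. Promoter peaks made up 13.1% of all peaks tested, 5.75% of the higher and 15.5% of the lower ones. By library, promoter peaks took 39.4% and 38.8% of all reads in peaks in naive cells. In Tterm they took 32.1%, a median of 36.1% and at most 37.3%, the highest share being that of library 6. The groups did not overlap, and the exact two-sided permutation p was 0.0714, the smallest that 6 against 2 libraries can give. The starts known here cover 17491 of 21896 protein-coding genes, so promoters of the other genes are counted among these gene ends.

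Peaks of both genes used for the sort differed in the direction of the sort. At the Havcr2 promoter (chr11:46452461-46455538, mm10; all coordinates are as deposited), naive libraries held 140 and 155 normalized reads and Tterm libraries 819 at the lowest, 1043 at the median and 1249 at the highest. The difference was 2.78 ± 0.23 (SE, adjusted p = 3.12e-09). All 8 peaks given to Havcr2 were higher, including one inside the gene with 71.4 and 77.8 reads in naive and 402 to 572 in Tterm. The Slamf6 peak of lowest p fell from 72.2 and 68.6 to between 7.05 and 22.9, a difference of -2.06 ± 0.39 (adjusted p = 0.000183). In aged progenitor-exhausted (Tprog) libraries, which were sorted as Slamf6+ Tim-3-, the same Slamf6 peak held 67.5 and 55.1 reads and the Havcr2 promoter 175 and 203. Those Tprog libraries are shown as values only: they are 2, both are from batch 6, and the first of them stood far from the other OT-1 libraries on the second component.

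Promoters of genes on both sides of the comparison are printed here because they lie in peaks that changed and show which short sequences they carry. The gene lists have 208 promoter peaks, of which 42 were higher and 48 lower. The few printed do not stand for the others. Each is the 250 bases upstream of the RefSeq start, 5′ to 3′ on the gene's strand, from build GRCm38.p6. Capitals mark matches to motifs searched on both strands: TGANTCA for AP-1, TGTGGTT for RUNX, CAGGAAG for ETS, CAGGTG for ZEB factors and E proteins, CAGCTG for other E-boxes and AGGTGTG for T-box factors. A CAGGTG match can overlap an AGGTGTG match, since AGGTG stands in both. Matches to AAGGTCA, the motif of NR4A nuclear receptors, at -148 in Gzme and -147 in Gzmd are not marked. The first 6 promoters lay in peaks that rose and the last 2 in peaks that fell.
Havcr2 (chr11:46454681-46454930, plus strand): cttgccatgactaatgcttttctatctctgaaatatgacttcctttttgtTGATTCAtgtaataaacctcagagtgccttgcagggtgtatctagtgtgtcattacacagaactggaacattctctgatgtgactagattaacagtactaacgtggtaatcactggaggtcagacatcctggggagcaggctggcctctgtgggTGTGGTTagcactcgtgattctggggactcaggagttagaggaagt
Gzmb (chr14:56262335-56262584, minus strand): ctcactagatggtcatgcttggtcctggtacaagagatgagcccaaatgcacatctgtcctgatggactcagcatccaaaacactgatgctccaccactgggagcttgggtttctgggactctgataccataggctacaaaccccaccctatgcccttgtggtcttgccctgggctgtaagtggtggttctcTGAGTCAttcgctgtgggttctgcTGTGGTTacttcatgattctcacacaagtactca
Tnfrsf9 (chr4:150927749-150927998, plus strand): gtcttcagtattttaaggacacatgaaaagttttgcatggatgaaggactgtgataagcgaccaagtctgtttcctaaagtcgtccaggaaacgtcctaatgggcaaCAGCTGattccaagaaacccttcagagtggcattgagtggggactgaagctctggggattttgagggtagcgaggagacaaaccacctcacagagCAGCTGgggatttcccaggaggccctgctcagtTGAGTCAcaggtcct
Gzme (chr14:56120626-56120875, minus strand): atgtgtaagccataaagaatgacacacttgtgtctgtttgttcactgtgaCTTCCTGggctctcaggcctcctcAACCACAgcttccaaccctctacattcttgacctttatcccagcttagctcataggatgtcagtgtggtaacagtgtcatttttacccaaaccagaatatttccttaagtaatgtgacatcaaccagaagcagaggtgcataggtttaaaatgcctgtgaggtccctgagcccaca
Gzmd (chr14:56132594-56132843, minus strand): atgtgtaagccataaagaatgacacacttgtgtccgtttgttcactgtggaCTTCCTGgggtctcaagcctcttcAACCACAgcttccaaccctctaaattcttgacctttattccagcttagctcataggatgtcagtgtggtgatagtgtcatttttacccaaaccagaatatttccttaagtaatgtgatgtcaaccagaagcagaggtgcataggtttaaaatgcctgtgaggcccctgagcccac
Gzmf (chr14:56211408-56211657, minus strand): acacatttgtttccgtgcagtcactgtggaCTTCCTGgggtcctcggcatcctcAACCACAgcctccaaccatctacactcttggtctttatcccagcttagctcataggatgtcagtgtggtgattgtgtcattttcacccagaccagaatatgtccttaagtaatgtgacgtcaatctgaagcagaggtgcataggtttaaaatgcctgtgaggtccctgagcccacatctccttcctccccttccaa
Nsg2 (chr11:32000169-32000418, plus strand): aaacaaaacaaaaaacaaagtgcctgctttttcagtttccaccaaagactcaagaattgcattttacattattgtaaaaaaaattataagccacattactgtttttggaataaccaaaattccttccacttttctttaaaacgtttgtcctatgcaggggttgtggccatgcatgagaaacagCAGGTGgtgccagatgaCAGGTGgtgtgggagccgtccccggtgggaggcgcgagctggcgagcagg
Satb1 (chr17:51826589-51826838, minus strand): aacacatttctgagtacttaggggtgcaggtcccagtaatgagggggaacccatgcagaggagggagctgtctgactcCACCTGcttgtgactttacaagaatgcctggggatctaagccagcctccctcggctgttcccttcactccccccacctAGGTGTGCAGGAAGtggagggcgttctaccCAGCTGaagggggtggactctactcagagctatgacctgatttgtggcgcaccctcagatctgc

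In the Havcr2 promoter an AP-1 match starts 200 bases and a RUNX match 46 bases before the start. The Gzmb promoter has an AP-1 match at -58 and a RUNX match at -34, and that of Tnfrsf9 an AP-1 match at -15. Promoters of the granzyme genes Gzme, Gzmd and Gzmf share an ETS match followed by a RUNX match 24 bases on (at -200 and -176, -199 and -175, -220 and -196). These 3 sequences are 80.7% to 88.2% identical over 229 to 249 bases, so reads from them may be split between copies and their values are uncertain. The Nsg2 promoter has CAGGTG at -67 and at -50.

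The AP-1 motif was found more often in rising than in falling promoters. It was found in 6.13% of 21262 RefSeq promoters, in 3.98% of those in a tested peak, in 8.9% of those in higher peaks and in 2.87% of those in lower peaks. Among promoters in peaks that rose by 1 or more it was found in 12.5% of 400, and among those that fell by as much in 2.59% of 1503 (18.2% of all tested peaks rose and 19.6% fell by 1 or more). CAGGTG was found in 24.5% and 14.8% of the same promoters, in 16.9% of all and in 15.6% of those in a tested peak. The TCF and LEF motif CTTTGAT was found in 0.5% of the first and 2.79% of the second, against 2.82% of all. Promoters in stronger gains were also less CpG-rich, with a median of 9 CpG pairs against 13 in stronger losses. These shares are descriptions of letters in a window, and peaks away from promoters were not searched.

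Genes of naive cells and quiescence lost accessibility most. Of 519 peaks given to 26 such genes, 278 fell and 63 rose, with a median of -1.09 against -0.17 over all peaks. Counts of this and later lists are to be read beside all peaks tested, of which 21.4% rose and 26.3% fell. Tcf7, which encodes TCF-1, had 11 of 18 peaks lower. Its intragenic peak at chr11:52268061-52268974 held 307 and 332 reads in naive and 39.8, 56.6 and 62.0 (lowest, median and highest) in Tterm, a difference of -2.57 ± 0.23 (adjusted p = 9.08e-09). Its promoter peak, chosen after its values were seen, fell from 563 and 527 to between 141 and 210. Lef1, the related factor LEF-1, fell at 22 of 34 peaks, in the peak of lowest p from 247 and 259 to between 32.9 and 61.2. Tterm libraries did not overlap naive ones at any of these 3 peaks, as at 57.8% of all peaks tested. Since the 3 were picked by low p or after their values were seen, this adds nothing to the test. Library 6 was the highest Tterm library at both the Tcf7 intragenic and the Lef1 peak.

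Satb1, an organizer of chromatin in T cells, had 22 of 30 peaks lower. Its peak of lowest p (chr17:51878992-51880899) held 400 and 409 reads in naive and 35.5 to 50.3 in Tterm, and 307 and 368 in aged Tprog. Foxp1, a quiescence factor, had 42 of 79 peaks lower and 10 higher, the most lower peaks of any gene. Bcl2, a survival gene, followed with 29 of 43 lower and 2 higher.

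Not every peak of a naive gene went down. The Ccr7 peak of lowest p, at chr11:99160466-99161878, rose from 24.4 and 28.1 reads to 139, 192 and 216, a difference of 2.91 ± 0.22 (adjusted p = 9.81e-10). About 10 kb on, at chr11:99170657-99171760, a second Ccr7 peak, shown after its values were seen, fell from 255 and 292 to between 24.7 and 44.2. Over the gene 8 of 15 peaks fell and 3 rose. Myb, a factor of progenitor cells, rose at 11 of 16 peaks and fell at 1. A peak 8849 bp from it went from 17.6 reads in both naive libraries to between 121 and 256, with 36.1 and 19.0 in aged Tprog. Arl4c (20 of 24 peaks lower), S1pr1, the receptor for exit from lymph nodes (15 of 18), Dapl1 (12 of 16) and Klf2 (5 of 7) followed the majority of the list.

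**Figure D2:**
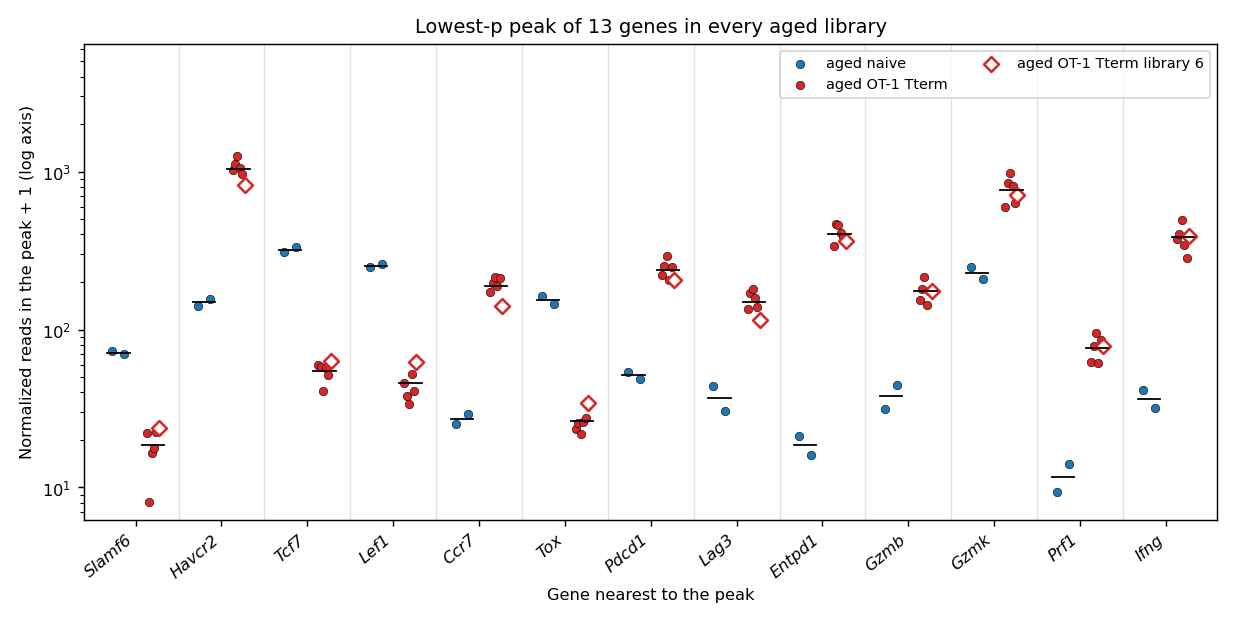
Normalized reads plus 1 (log axis) at the lowest-p peak of 13 genes in each aged library: blue points are naive, red points Tterm, the open diamond Tterm library 6, and short lines group means. At each of these peaks, picked by lowest p, the groups do not overlap, as at 57.8% of all peaks tested. Slamf6, Tcf7, Lef1 and this peak of Tox are lower in Tterm and the other 9 are higher.

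Inhibitory receptors gained accessibility, though not as a whole list. Of 129 peaks given to 15 such receptors and ectoenzymes, 58 (45.0%) rose and 37 (28.7%) fell, with a median of 0.49. The share that fell is close to the 26.3% of all peaks tested. Within 10000 bp of the genes the median turned to -0.04, with 40 of 98 peaks higher and 30 lower. With no filter on low values it was -0.14 over 179 peaks. Entpd1 encodes CD39, an ectoenzyme that marks tumour-reactive exhausted cells. Its intragenic peak at chr19:40691595-40692561 held 20.2 and 15.0 reads in naive and 335, 394 and 468 in Tterm. This difference of 4.42 ± 0.28 (adjusted p = 6.73e-11) was 1 of 9 higher among 13 Entpd1 peaks, and aged Tprog held 24.4 and 54.3 reads there. Ctla4, an inhibitory receptor that competes for CD28 ligands, rose at 12 of 15 peaks, at the lowest-p one from 140 and 126 to between 498 and 667.

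Pdcd1, which encodes PD-1, had 6 of 10 peaks higher and 2 lower. A peak within 1000 bp of its start held 52.9 and 47.7 reads in naive and 204, 234 and 291 in Tterm, a difference of 2.19 ± 0.24 (adjusted p = 1.38e-07). A distal peak at chr1:94074078-94075668, 21525 bp from the gene and shown after its values were seen, rose from 140 and 129 to between 815 and 1081. Its level in the aged Tprog libraries was 94.3 and 394, so the 2 Tprog libraries disagreed. Lag3, which binds MHC class II, rose from 42.8 and 29.4 to between 114 and 178 (1.99 ± 0.25, adjusted p = 1.16e-06), with library 6 the lowest. Tigit, a receptor for CD155, had 6 of 13 peaks higher and 2 lower. Other receptors on the list went down more often than up: Btla (6 of 10 peaks lower), Cd38 (5 of 9), Cd96 (4 of 6) and Cd101 (4 of 8), with 1, 1, 1 and 2 higher.

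Transcription factor genes of effector and exhausted cells had more rising than falling peaks, with exceptions. Of 467 peaks given to 21 such genes, 215 rose, 59 fell and 193 were not called, a median of 0.75. Runx2 rose at 42 of 56 peaks and fell at 1, and Rbpj, the effector of Notch signalling, at 24 of 38 with none lower. Bhlhe40, a regulator of effector metabolism, rose at 13 of 17 peaks with none lower, at the lowest-p one from 31.9 and 34.6 reads to 157, 241 and 316. Prdm1, which encodes the repressor Blimp-1, rose at 11 of 24 and fell at 4. Its distal peak at chr10:44615385-44616249 held 13.4 and 11.8 reads in naive and 132 to 193 in Tterm, a difference of 3.56 ± 0.35 (adjusted p = 3.61e-08).

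Tox, the factor needed for exhausted cells to persist, showed both directions. Its peak of lowest p (chr4:6969946-6971215) fell from 163 and 144 to 20.8, 24.9 and 33.1, a difference of -2.56 ± 0.31 (adjusted p = 5.25e-07). Yet 22 of its 45 peaks rose and 5 fell. The rising peak of lowest p, at chr4:6833640-6834996 and shown after its values were seen, went from 39.5 and 41.2 reads to between 112 and 172. Tox2 rose at 5 of 9 peaks and Maf at 5 of 7, both with none lower. Eomes, the T-box factor linked to memory and exhaustion, went the other way with 10 of 17 peaks lower and 1 higher. Tbx21, its relative T-bet, had 4 of 13 higher and 1 lower. The nuclear receptors Nr4a1, Nr4a2 and Nr4a3 had 1 of 8, 2 of 9 and 4 of 15 peaks higher and 0, 2 and 2 lower.

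AP-1 genes rose at 36 of 85 peaks and fell at 16, a median of 0.64. Batf3 (10 of 14 peaks higher), Fosl2 (7 of 11) and Batf (5 of 9) had none lower. Fos had 9 of 15 lower and 1 higher, and Jun 3 higher and 3 lower of 11. The sole rising Fos peak went from 26.9 and 22.2 to 141 at the median, with 50.2 in library 6 and at most 191.

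**Figure D3:**
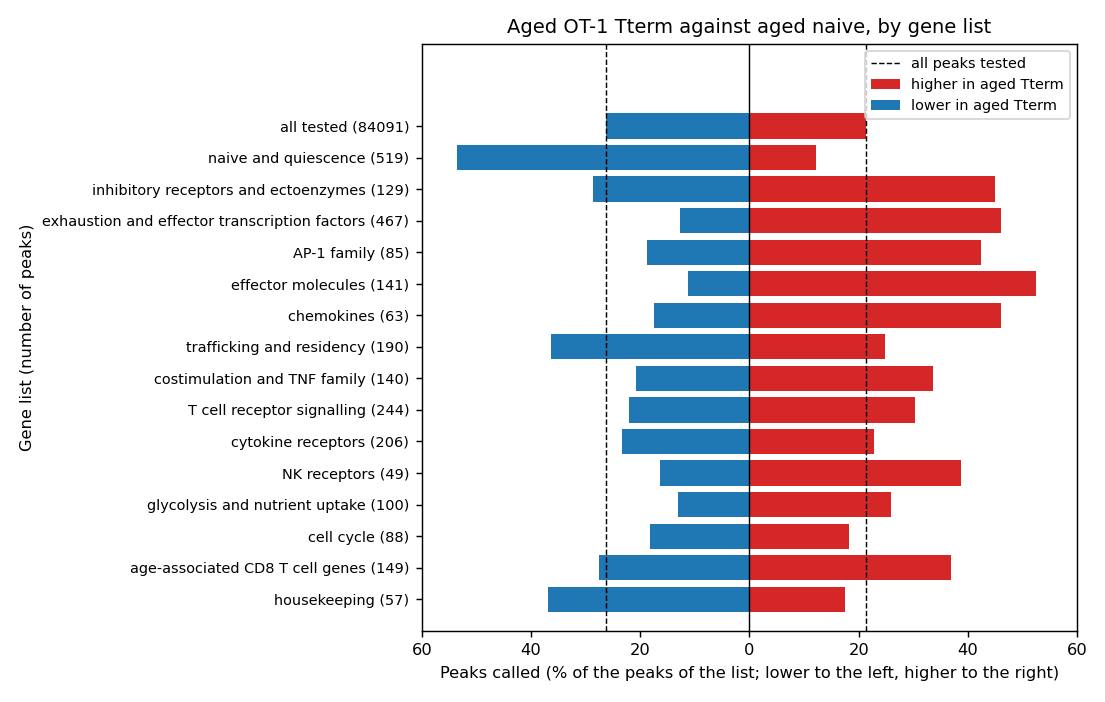
Percent of each gene list's peaks that were called higher (red, to the right) or lower (blue, to the left) in aged Tterm against aged naive; dashed lines mark all peaks tested, 21.4% and 26.3%. Effector molecules reach 52.5% higher, and naive and quiescence genes 53.6% lower.

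Of 141 peaks given to effector genes 74 rose and 16 fell, a median of 0.82. Within 10000 bp of the genes 30 of 68 rose and 5 fell. Ifng, which encodes interferon gamma, rose at 23 of 34 peaks. At chr10:118385923-118387701, 53345 bp from the gene, naive libraries held 40.3 and 30.7 reads and Tterm libraries 285, 382 and 495, a difference of 3.37 ± 0.22 (adjusted p = 1.06e-10). In aged Tprog this peak held 59.4 and 60.3 reads. Il10, a suppressive cytokine, rose at 10 of 11 peaks, at the lowest-p one from 17.6 and 30.1 to 156, 254 and 261.

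The granzymes, proteases released by killer cells, rose at most of their peaks. Gzmb had 8 of 13 higher and 1 lower. A distal Gzmb peak went from 30.2 and 43.8 to 142, 174 and 216 (2.19 ± 0.24, adjusted p = 1.98e-07), and the promoter from 367 and 336 to between 681 and 963. The Gzme promoter was nearly closed in naive cells, at 6.72 and 6.54 reads, and held 75.5, 122 and 181 in Tterm. Gzmk rose from 249 and 207 to between 593 and 973 (1.71 ± 0.26, adjusted p = 1.6e-05). Prf1, which encodes the pore protein perforin, had 3 of 8 peaks higher and 1 lower; an intragenic one rose from 8.4 and 13.1 to between 60.1 and 93.5. Srgn, the granule proteoglycan, had none of 7 peaks called in either direction.

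Among chemokine genes 29 of 63 peaks rose and 11 fell. Ccl3 rose at 5 of 6 peaks and Ccl4 at 4 of 6, with none lower; both encode inflammatory chemokines. A Ccl3 peak at chr11:83628406-83630287 held 173 and 184 reads in naive and 990, 1326 and 1581 in Tterm, a difference of 2.84 ± 0.26 (adjusted p = 1.5e-08). Ccl1 rose at 9 of 13 peaks. Xcl1, which draws cross-presenting dendritic cells, went down at 10 of 22 peaks and up at 3. Of all 11 lower chemokine peaks, 10 were Xcl1 and 1 was Ccl5.

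Genes of migration and residency moved both ways, 47 of 190 peaks up and 69 down. These are 24.7% and 36.3%, against 21.4% and 26.3% of all peaks tested. Rgs1, which dampens chemokine signals in tissue T cells, rose at 14 of 21 peaks and fell at 2. Cx3cr1 rose at 6 of 9 and Itgae, the residency integrin CD103, at 3 of 7 with none lower. Ccr2 gained a peak at chr9:124098954-124100028 from 35.3 and 45.8 reads to 258, 299 and 358 (2.86 ± 0.21, adjusted p = 6.7e-10). Lower were Klf3 (8 of 9 peaks), Itga4 (8 of 12), S1pr5 (4 of 5), Cxcr4 (10 of 18 against 3 higher) and Cd69 (8 of 18 against 1 higher).

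Costimulatory receptors and ligands of the TNF family gained at 47 of 140 peaks (33.6%) and lost at 29 (20.7%), against 21.4% and 26.3% of all peaks tested. Tnfrsf4, which encodes OX40, rose at all 3 of its peaks. Tnfrsf1b, the second TNF receptor, rose at chr4:145217327-145218030 from 27.7 and 14.4 to 227, 277 and 397. Tnfrsf9, which encodes 4-1BB, had 6 of 10 peaks higher. Its peak of lowest p is the 1 that fell, from 206 and 211 to between 18.6 and 40.5 (-2.74 ± 0.29, adjusted p = 8.65e-08). A Tnfrsf9 promoter peak at chr4:150920997-150921677, shown after its values were seen, rose from 133 and 135 to between 306 and 428. The Tnfrsf9 promoter printed above lies in a different peak, with means of 222 in naive and 446 in Tterm.

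Signalling genes of the T cell receptor rose at 74 of 244 peaks (30.3%) and fell at 54 (22.1%), against 21.4% and 26.3% of all peaks tested. The phosphatase genes Dusp5 (10 of 20 higher), Dusp4 (8 of 18) and Ptpn22 (6 of 15) rose more often than they fell (2, 2 and 3 lower), and Dusp6 had 1 of 9 higher and 3 lower. Dusp5 went from 60.5 and 54.3 to 301, 365 and 444 at its peak of lowest p. Cd247, the zeta chain of the receptor, fell at 9 of 19 peaks and rose at 2. Of 206 peaks of cytokine receptor genes 22.8% were up and 23.3% down, close to the shares of all peaks. Il10ra rose at 10 of 14, while Il6st, the shared chain of interleukin 6 receptors, fell at 10 of 17. An Il2rb intragenic peak fell from 166 and 164 reads to between 18.5 and 45.1, although 5 of 10 Il2rb peaks rose and 1 fell.

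NK receptor genes had 19 of 49 peaks higher and 8 lower, Klrg1 6 of 9 and Klrc1 4 of 5 with none lower. In glycolysis and nutrient uptake 26 of 100 rose and 13 fell, against 21.4% and 26.3% of all peaks tested. Hk2, the first enzyme of glycolysis, rose at 6 of 10 peaks, and Slc7a5, a leucine transporter, at 4 of 8, both with none lower. Cell-cycle genes had 16 of 88 higher and 16 lower, 18.2% each way, so both shares lay below those of all peaks. Housekeeping genes had 10 of 57 higher and 21 lower, a median of -0.49.

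Markers of other cells the sort could hold were read beside these. Summed over start and end peaks, melanocyte genes held 554 and 587 reads in naive and 358 to 476 in Tterm, and B cell genes 247 and 254 against 249 to 341. Myeloid genes held 880 and 952 against 899 to 1190. Genes of CD4 and regulatory T cells held 1017 and 1066 against 1394 to 1999, and NK genes 249 and 269 against 399 to 511 over 2 peaks. Over all 15 peaks of the NK genes 2 were higher and 6 lower, a median of -0.87. The CD4 and regulatory list had 23 of 49 peaks higher and 4 lower, 12 of the higher ones being Ctla4, which exhausted CD8+ cells use too. Cd4 itself rose at 3 of 4 peaks, and the single Foxp3 peak was not called. Pmel and Mlana had none of their 4 peaks higher, while the single Sox10 peak rose from 26.9 and 28.8 to 182, 359 and 450. CD8 T cell identity genes held 4371 and 4540 reads in naive and 4608 to 6049 in Tterm. The part of other cells in the results was not tested.

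Some peaks were open in 1 state and nearly shut in the other. Those with a naive mean under 5 and a Tterm mean of 30 or more numbered 436, of which 3 were at promoters, 211 inside genes and 216 between genes. Their medians were 3.64 reads in aged naive, 40.2 in aged Tterm, 6.90 in young naive, and 11.6 and 21.5 in the 2 aged Tprog libraries. The reverse held for 94 peaks, none at a promoter. Disp1, a carrier of Hedgehog ligands, had such an opened peak at chr1:183215443-183216389, with 1.68 and 3.27 reads in naive and 171, 224 and 326 in Tterm (6.06 ± 0.81, adjusted p = 2.44e-06).

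The largest fitted gain was at Gldc, an enzyme of glycine breakdown, at chr19:30118357-30119430. Tterm libraries held 616, 1100 and 1239 reads there, naive library 1 held 0.84, which is 1 read, and naive library 2 held 47.7. The difference was 6.74 ± 0.72 (adjusted p = 1.19e-07), and 4.38 without naive library 1 or 9.10 without naive library 2. Foxred2 (42.0 and 0 in naive, 130 to 715 in Tterm), Ncs1 (0 and 32.0 against 57.9 to 543) and Afap1l2 (50.4 and 0.654 against 297 to 655) had naive libraries that disagreed in the same way. Without naive library 1 their differences were 9.07, 3.58 and 8.33, and without naive library 2 they were 3.64, 8.63 and 3.38.

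On the falling side the largest was a peak 636 bp from Fam241a, with 273 and 253 reads in naive and 0, 19.9 and 22.9 in Tterm (-4.89 ± 0.94, adjusted p = 0.000208). Ubac2 had 269 and 269 in naive and 4.00, 15.5 and 29.2 in Tterm at chr14:121845623-121846707. That gene was among the 8 with most lower peaks, 26 of 38. Btg1, an antiproliferative gene, had a distal peak with 43.7 and 45.1 in naive and 0, 1.11 and 9.28 in Tterm.

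The genes with the most higher peaks, a small part of 6937 genes with any, are named after their counts were seen. Cmip, which encodes the c-Maf inducing protein, rose at 50 of 72 peaks and fell at 2, the most higher peaks of any gene. Runx2 followed, then Atxn1 (38 of 61), Itpr1, a calcium channel of the endoplasmic reticulum (31 of 59), Atg7, an autophagy enzyme (26 of 48), and F13a1, a coagulation factor chain, which had 24 of 28 higher and none lower. Besides Foxp1 and Bcl2, the most lower peaks lay at Gramd3 (27 of 47), Jak1 (27 of 47), Ripor2 (26 of 38) and Fyn (25 of 54). In the region of T cell receptor alpha segments 59 of 167 peaks fell and 15 rose, a median of -0.72, and in that of beta segments 14 of 41 fell and 3 rose. The OT-1 receptor is fixed and that of naive cells is not labelled, so receptor and state cannot be told apart at these loci.

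Within the Tterm group, library 6 differed from the rest by the kind and the level of the peaks at which it was low. It lay below all of the other 5 by 1 or more at 1387 peaks, 1282 of which were among the higher ones, and above them at 897, of which 728 were among the lower ones. The other 5 libraries lay below the rest at 1147 to 1815 peaks each, of which 2.70% to 5.77% were among the higher ones, against 92.4% in library 6. At the 1387 peaks the medians were 19.4 in naive, 116 in the other 5 and 35.9 in library 6. Aged Tprog libraries of the same batch had medians of 80.3 and 87.9 there. Young Tterm libraries of batch 6 lay below the other young Tterm libraries at 924 of the 1387 peaks, with a median difference of -0.26. This was not particular to the set of library 6. At the peaks where aged libraries 2 and 3 lay below the rest, the young batch 6 libraries were lower at 1062 of 1474 and 939 of 1372. For aged libraries 1, 4 and 5 it was 565 of 1147, 1141 of 1815 and 863 of 1566.

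Runx2 had 6 of its 56 peaks among the 1387 where library 6 was low. Its peak of lowest p held 31.9 and 54.9 reads in naive, 144 in library 6, 487 at the median and 540.5 at most. Hif1a, the oxygen-sensing factor, held 47.0 and 52.9 in naive, 116 in library 6, 344 at the median and 463 at most. The same order was seen at Tnfsf4, the ligand of OX40 (118 and 96.7, then 200, 783 and 888), and at Il2ra, the high-affinity interleukin 2 receptor chain (20.2 and 23.5, then 66.9, 225 and 262). At Ifng, Il10, Ctla4, Ccr2, Rgs16 and Prdm1 library 6 lay within the range of the other 5. The 1387 peaks are 1.65% of those tested and hold 1282 of the 18021 higher peaks. Among them were 5 of 85 AP-1 peaks (5.88%) and 7 of 140 costimulation peaks (5.00%), the 2 highest shares of the 24 lists. They held 1 of 141 effector peaks (0.709%) and 0 of 63 chemokine peaks. The 897 peaks where library 6 stayed higher are 1.07% of those tested. Genes with the most of them included Maml2 (6 of 38), Ikzf2 (5 of 29), Satb1 (5 of 30), Itga4 (4 of 12) and Lef1 (4 of 34).

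**Figure D4:**
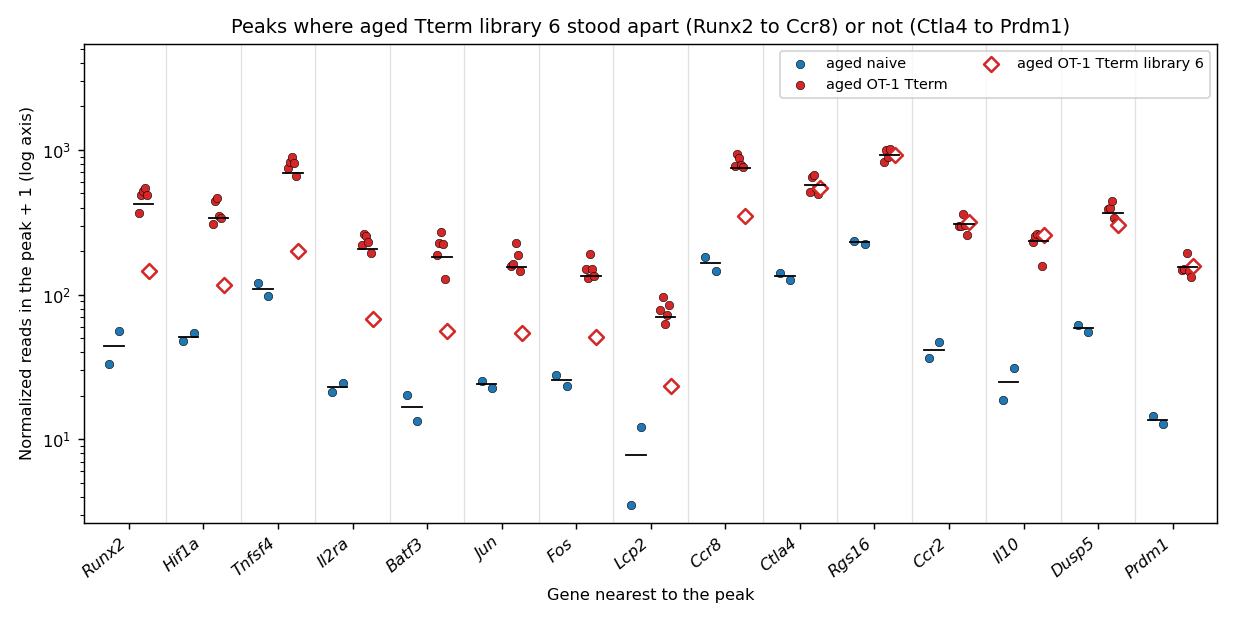
Normalized reads plus 1 (log axis) at lowest-p peaks in aged naive (blue) and aged Tterm (red) libraries, with library 6 as an open diamond and short lines for group means. From Runx2 to Ccr8 library 6 lies below the other 5 Tterm libraries, at 144 against a median of 487 for Runx2; from Ctla4 to Rgs16 and at Ccr2, Il10 and Prdm1 it lies among them, and at Dusp5 it is the lowest by less.

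The Tterm-minus-naive difference was then set against the same difference between groups labelled 10 to 12 weeks (7 Tterm and 2 naive libraries). It differed with age at 1704 of 84091 peaks, which is 2.03% (limma interaction, adjusted p under 0.05), 463 (0.551%) with a more positive and 1241 (1.48%) with a more negative difference in the aged groups. Without Tterm library 6 the counts were 382 (0.454%) and 944 (1.12%), of which 330 and 903 were called with it too. With libraries scaled to equal totals they were 752 and 1186. The count rested on the naive libraries and on 1 library outside the contrast: it was 227 and 657 without aged naive library 1 or 2, 391 and 357 without young naive library 1 or 2, and 3807 without aged Tprog library 1 (left out after the data were seen). Naive levels differed between the ages at these peaks. The test that picked them uses the naive values, so such a difference follows largely from that choice. At the 1241 peaks the medians were 155 reads in aged naive and 39.6 in young naive, but 117 in aged Tterm and 116 in young Tterm. Both aged naive libraries lay above both young ones at 1240 of them. At the 463 peaks the medians were 13.7 and 66.8 in aged and young naive and 35.6 and 28.7 in aged and young Tterm. The naive libraries are 2 at each age, and the labels give no sort gate for naive cells.

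Effector genes were among those with such peaks. The examples were taken from the called peaks, so their naive difference follows from that choice. The Gzmb promoter held 367 and 336 reads in aged naive and 90.0 and 96.2 in young naive, against 681 to 963 in aged and 657 to 1018 in young Tterm. Its gain was smaller in the aged groups (difference of differences -1.84 ± 0.36, adjusted p = 0.00653). A Ccl5 peak at chr11:83530055-83530776 held 207 and 212 in aged naive, 50.1 and 64.2 in young naive, and 337 to 499 in aged Tterm. An Ifng peak at chr10:118469958-118471126 held 289 and 250 in aged and 82.9 and 78.6 in young naive, against 520 to 694 in aged Tterm. A Cxcr3 promoter peak, for the receptor of interferon-induced chemokines, held 73.1 and 57.5 in aged naive, 13.5 and 10.4 in young naive and at most 39.0 in aged Tterm. Young Tterm libraries held 21.1 to 42.3 reads there. The interaction was -2.42 ± 0.48 (adjusted p = 0.00719). The fall at this peak in aged cells (-1.15 ± 0.34, adjusted p = 0.00869) was no longer called without naive library 1 (limma, adjusted p = 0.125). Another Cxcr3 promoter peak with more reads, at chrX:101733552-101734511, did not fall. It held 310 and 299 in aged naive and 260 to 406 in aged Tterm (difference 0.13, limma adjusted p = 0.689), with 115 and 105 in young naive.

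A peak inside Zeb2, which encodes a zinc-finger repressor of effector cells, did not pass the test between aged Tterm and aged naive (difference -0.06, adjusted p = 0.902). Its levels were 202 and 157 in aged naive and 112 to 227 in aged Tterm, with 18.6 and 24.1 in young naive and 90.2 to 253 in young Tterm (interaction -2.89 ± 0.47, adjusted p = 0.00174). An Itga1 promoter peak, for an integrin of resident cells, had 247 and 159 in aged naive, 38.6 and 42.5 in young naive and 86.6 to 164 in aged Tterm. In the list of 11 age-associated CD8 genes 17 of 149 peaks were among the more negative ones, against 1.48% of all peaks tested. These lay at Cxcr3, Ccl5, Eomes, Il2rb, Gzmk and Cd44, and none at Tox, Pdcd1 or Lag3. The share was not particular to that list: it was 8 of 63 for chemokines, 20 of 190 for trafficking and 11 of 141 for effector molecules. The lists share genes, such as Cxcr3, Ccl5 and Gzmk, whose peaks count in each.

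Peaks with the reverse pattern were fewer. A distal Id3 peak at chr4:136106476-136107365 held 15.1 and 9.80 reads in aged naive, 90.6 and 111 in young naive, 30.2, 81.7 and 120 in aged Tterm and 27.3 to 69.6 in young Tterm. Id3 encodes an inhibitor of E proteins kept by naive and progenitor cells, and its interaction was 3.49 ± 0.53 (adjusted p = 0.00107). Ccr9, a gut-homing receptor, held 27.7 and 38.6 in aged naive and 133 and 141 in young naive, with 71.4 to 105 in aged and 64.0 to 107 in young Tterm. For the Ccr7 peak that rose, aged naive held 24.4 and 28.1, young naive 59.8 and 73.0 and young Tterm 61.1 to 183.

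**Figure D5:**
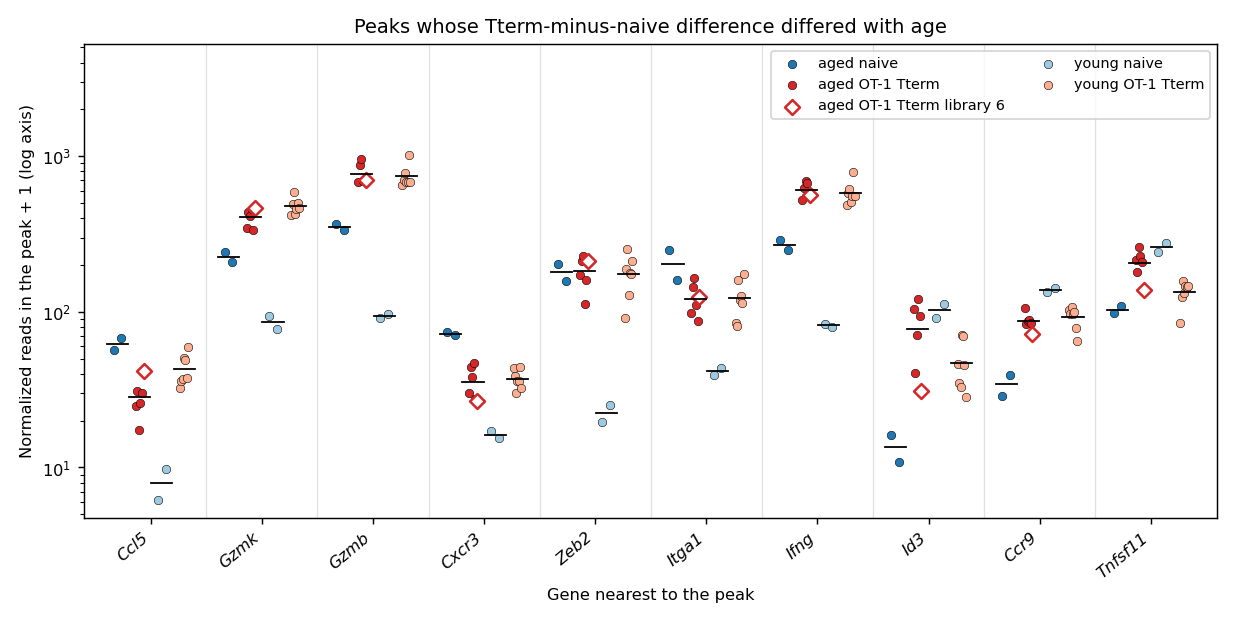
Normalized reads plus 1 (log axis) at 10 peaks whose Tterm-minus-naive difference differed with age, in aged naive (dark blue), aged Tterm (red, library 6 as an open diamond), young naive (light blue) and young Tterm (light red); short lines are group means. From Ccl5 to Ifng aged naive libraries lie above young naive ones, at 367 and 336 against 90.0 and 96.2 for Gzmb; at Id3, Ccr9 and Tnfsf11 they lie below, while Tterm libraries of both ages overlap.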

How the data were processed

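ATAC-seq reads were aligned with Bowtie2 2.2.9 to mm10, handled with Picard 2.8.0 and SAMtools 1.3.1 and turned into peaks with MACS2 2.1.1, per the submitters' processing notes. The authors deposited 1 table of 169323 peaks and 21 OT-1 and naive libraries whose signal values are reads divided by a size factor per library (DESeq2 1.28.1 in the notes). In every library 100% of values were whole reads within 0.01 once divided by the value of 1 read, so reads and depth (6.80 to 27.7 megareads per library) were recovered.

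Peaks with a table mean of 10 or more (84091) were fitted as log2(value + 1) with limma 3.58.1 (trend), the 6 groups of the table in 1 model with a term for sequencing batch 6, and Benjamini-Hochberg adjustment over all peaks. 2 contrasts were tested: aged Tterm against aged naive, and the interaction with age. edgeR 4.0.16 and DESeq2 1.42.0 on recovered reads (21760 higher and 19932 lower, and 22060 and 21747) and other settings were alternatives, and each test was tried on simulated data. A peak was given to the nearest RefSeq gene within 100000 bp (GRCm38.p6, the build of mm10); 5053 tested peaks had none. Motifs were searched in promoters because no genome sequence was used here.

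Peaks are named by rule: the 8 largest non-overlapping differences in each direction and the 6 lowest p of the age test in each direction. To these come the 4 genes of lowest adjusted p in each of 24 gene lists and 14 fixed genes, each at its lowest-p peak. A part of these is printed, and peaks outside the rule are said to be so; 1 of the fixed genes is not reported here. Members, lists and rules were chosen with earlier results of these data known. Counts per gene cover all of its peaks. The naive libraries were not used as pairs of the Tterm libraries of the same number: their deviations from group means correlated at -0.084 and -0.066.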

Additional observations from a re-analysis of the deposited data

Results flagged for a closer look

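Within the 6 aged Tterm libraries, 17 of 100 named peaks had a library far from the rest (Dixon's rule, which flags about 1 group in 20 by chance), and in 14 of them that library was number 6. Its values were lower than those of the other 5 at Gldc (616 normalized reads), Slc7a5 (593), Ccr8 (350), Tnfsf4 (199.5), Sox10 (182), Runx2 (144), Foxred2 (130), Hif1a (116), Cx3cr1 (108), Il2ra (66.9), Ncs1 (57.9), Jun (53.5), Fos (50.2) and Lcp2 (22.4). Library 5 was lowest at Il10 (156) and at Lilrb4a (152), and library 2 at Slamf6 (7.05). In share of reads, library 1 stood apart with 28.7% in peaks between genes.

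The difference between Tterm and naive cells differed between the aged and young groups by the interaction test at 463 peaks in the positive and 1241 in the negative direction. The positive ones of lowest p lay at Colq (log2 interaction 3.25), Pde10a (3.74), Syt13 (3.53), Slc28a2 (2.45) and Plcl1 (4.47), and at chr9:43544807-43545775 with no gene near it (2.31). The negative ones lay at Ttc39c (-3.80), Nr3c2 (-3.05), Lilrb4a (-3.42), Lilr4b (-2.48) and Galnt14 (-3.50), and at chr5:120321511-120322181 with no gene near it (-4.01).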

How the results depend on the processing

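No named peak reversed in direction, and no peak was called in opposite directions by the reported fit and any alternative. The counts of 18021 higher and 22087 lower peaks stayed within 1.5 times under other pseudocounts, filters, scalings, weights, tests and batch terms. They fell to 640 and 834 when library 6 was the single aged Tterm library, assumed to vary like the other groups. Leaving out 1 library of the 2 groups gave 11400 to 18271 higher and 8431 to 21751 lower peaks, the lowest without naive library 1, and without aged Tprog library 1, outside the contrast, they were 19706 and 25052. The median over all peaks was -0.17 and went to 0.04 with edgeR and to -0.01 with DESeq2, and differences are relative to it.

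The 1704 age-dependent peaks moved more. The count was 13613 with array weights, 3263 with only the compared groups and no batch term, 3396 with DESeq2, and 3807 without aged Tprog library 1 (added after seeing the data). It was 0 by limma with batch 6 Tterm libraries only, where 7096 peaks had an unadjusted p under 0.05. Leaving out 1 library of the 4 groups in the contrast gave 227 to 2009. The cause was not tested. Of the age-dependent peaks, 27.2% were positive, against 38.8% with equal totals and 37.5% with edgeR.

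With the replicate number as a block in place of the batch term, 16177 peaks were higher, 19784 lower and 1388 age-dependent. The labels tie no number to a mouse or day. Naive and Tterm deviations of the same number correlated at -0.084 and -0.066, and with 2 naive libraries, whose deviations mirror each other, this decides little. Of 2296 values of named peaks under alternatives, 2206 kept their call, 84 lost it, 60 of them with batch 6 libraries only, and 6 gained it. The design has 2 naive libraries in 1 batch, so tissue, state and batch cannot be told apart.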

Other observations

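Several further genes had peaks with more reads in aged than in young naive cells. All peaks of this paragraph were taken from those called in the age test, so their naive difference follows largely from that choice. The Nr3c2 promoter, of the mineralocorticoid receptor, held 706 and 640 reads in aged naive, 75.2 and 85.8 in young naive, 184 to 331 in aged Tterm and 180 to 348 in young Tterm. Lilr4b and Lilrb4a, neighbouring inhibitory immunoglobulin-like receptor genes, held 452 and 406, and 399 and 331, in aged naive against 70.0 and 85.8, and 37.9 and 28.9, in young naive. Neither passed the test between aged Tterm and aged naive (limma adjusted p = 0.0921 and 0.0836). The reads at these 2 genes may be split, since they are close relatives. Galnt14, a glycosyltransferase, held 170 and 166 in aged naive and 12.9 and 12.8 in young naive, with 46.8 to 107 in aged Tterm. An Xcl1 promoter peak held 347 and 310 in aged and 78.4 and 85.0 in young naive. Fewer reads in aged than in young naive cells were seen at Pde10a, a phosphodiesterase, with 10.9 and 14.4 in aged and 114 and 132 in young naive, and at Plcl1 with 4.20 and 3.92 against 102 and 103. At Colq, 41.2 and 40.5 stood against 277 and 258, and aged Tterm held 109 to 270.

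Peaks on chromosome X took 2.18% to 2.22% of reads in aged naive and 1.82% to 1.97% in aged Tterm, and those on chromosome Y 0.110% to 0.118% and 0.136% to 0.219%.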
